A study of Mus musculus with 4 samples.

Results

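Long intergenic noncoding RNAs (lincRNAs) are transcripts that lie between protein-coding genes and carry no known reading frame. Here they were the 54 genes on mouse chromosomes 1 to 19 that the deposited tables class as lincRNA and that had at least 20 reads in each of the 4 libraries, with the imprinted genes H19 and Meg3 left out. They came from 260 autosomal lincRNAs, and 266 lincRNAs on any chromosome, among the 14100 genes listed in both tables. The members were chosen by their read counts, so their levels and the steadiness that the 20-read floor forces on them are a description and carry no test. The RNA came from brain endothelial cells of C57BL/6 embryos at embryonic day 18 (E18). There were 2 libraries of the genotype STING ECKO, by its name an endothelial knockout of STING, numbered 1 and 2, and 2 libraries of wild type (WT), numbered 3 and 5. Triplicates are mentioned in the design text, and 2 libraries per genotype were analysed here. STING, encoded by Tmem173, is the adaptor that relays the sensing of DNA in the cytosol. The labels do not give the Cre line or the STING allele, or say whether libraries came from separate or pooled animals. The p-values below therefore speak only of the scatter among these libraries, part of which may be technical. Where a genotype has a pair of values, they belong to STING ECKO 1 and 2, or to WT 3 and 5, in that order.

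LincRNAs are made by the same polymerase as mRNAs and are often spliced and polyadenylated, but most are held at low levels and vary more between cell types than mRNAs do. Some act as scaffolds of nuclear bodies, some bind proteins or microRNAs through repeated short motifs, some host small RNAs in their introns, and some start beside a coding gene and share its promoter. In endothelium, Malat1 is the best described member, where it affects proliferation and vessel growth.

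The 4 libraries listed 18610298 to 22169261 reads. Markers of the labelled cell type were high: 11 endothelial markers summed to 28635 and 27064 CPM in STING ECKO, against 28187 and 27502 CPM in WT. Markers of other cells were present too. Over the libraries, 6 pericyte and smooth muscle markers summed to 6733 to 9319 CPM and 4 erythroid markers to 1090 to 2562 CPM. CPM is the number of reads of a gene per 1000000 reads of its library, here with library totals corrected by the trimmed mean of M values (TMM). Tmem173 did not separate the genotypes, with 3.65 and 8.32 CPM in both libraries labelled STING ECKO, against 4.48 and 6.27 CPM in WT. Xist had 0 and 876 reads in STING ECKO, against 2347 and 3374 reads in WT. By this gene alone the libraries did not look matched in sex, and sex was not separated from genotype in any fit. Libraries also differed in how many genes they reached. Of all 14100 genes, 378 and 1855 had 0 reads in STING ECKO, against 740 and 337 in WT. Of the 260 autosomal lincRNAs, 30 and 97 had 0 reads in STING ECKO, against 33 and 20 in WT. STING ECKO 2 was the deepest library and had the most lincRNAs at 0.

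Of the 260 autosomal lincRNAs, 122 had reads in every library and 56 had at least 20 in every library, H19 and Meg3 among them. Just inside the floor were Gm26603 with 20 reads in its lowest library, C920006O11Rik with 21 and Mir9-3hg with 22. Just outside were CT009718.1 with 19, A430105J06Rik with 17 and 2900076A07Rik with 15. At 20 reads the exact Poisson 95% interval runs from 12.2 to 30.9 reads, which covers counting error only. Identity also depended on the annotation. Of the 54 members, 53 were found by gene ID in the GENCODE M21 annotation of GRCm38, 49 of them at the same position, and M21 classes 49 as lincRNA, 2 as antisense (9530082P21Rik and A330009N23Rik), 1 as bidirectional promoter lncRNA (B230354K17Rik) and 1 as protein-coding (6330403K07Rik). Coordinates below are those of the deposited tables. Exons of 18 members shared bases with another annotated gene, a protein-coding gene for 11 of them. Whether counting used strand is not given in the sources used here, so the reads of those 18 may include reads of the partner. The bodies of 16 members, introns included, overlapped a protein-coding gene in M21, so not all lay between coding genes.

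The lincRNAs were mostly weak. Their mean over the 4 libraries had a median of 12.2 CPM, with 6 members below 5 CPM, 32 at 5 to 20, 10 at 20 to 100 and 6 at 100 or more. Per kilobase of merged exons, which allows levels of different genes to be compared, the median was 4.84 CPM per kb, against 8.79 CPM per kb for the 8789 autosomal protein-coding genes that passed the same floor. The order among the strongest members per kilobase was Gm26917 at 678, C330006A16Rik at 60.7, 9530082P21Rik at 58.5, 2900097C17Rik at 47.8, Bvht at 47.4, Gm11378 at 39.3, Malat1 at 36.4, 1810058I24Rik at 28.9, AC161054.2 at 26.1 and 1700020I14Rik at 24.1 CPM per kb. Only Gm26917 stood clear of its neighbour in this order in every library, and below it the ranges of adjacent members over the 4 libraries overlapped.

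**Figure D1:**
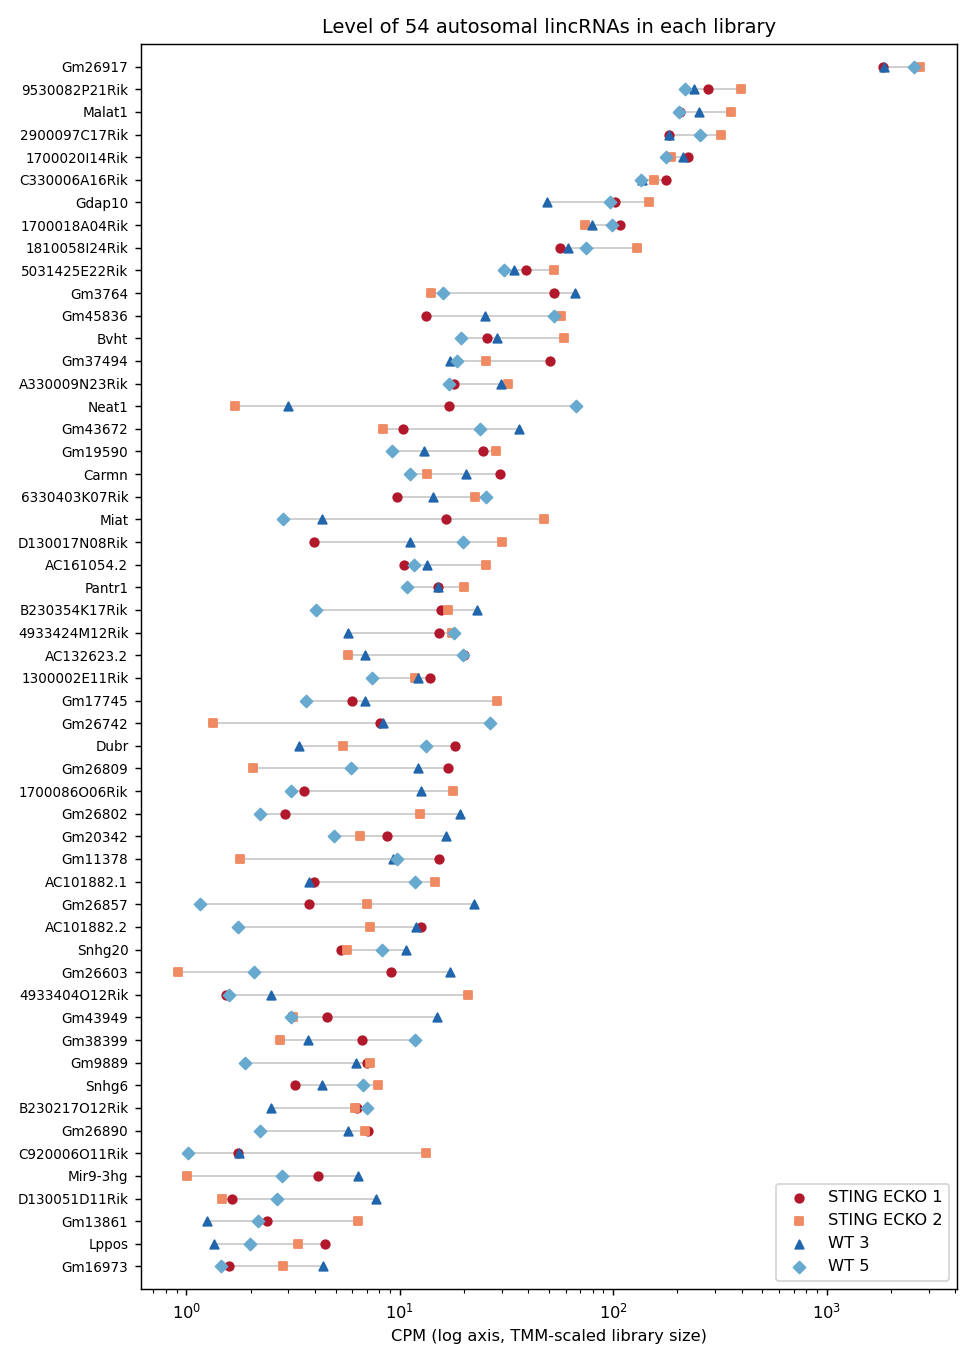
Level of each of the 54 lincRNAs in CPM (log axis), ordered by mean, with 1 symbol and colour for each library, and grey lines spanning the 4 values. Gm26917 lies alone near 2256 CPM, 5 further members lie above 100 CPM, and most lie between 5 and 20 CPM with their 4 points spread over several-fold.

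Gm26917 (ENSMUSG00000097971, chr17:39843013-39846341, plus strand) had 33715 and 60080 reads in STING ECKO, against 40349 and 53398 reads in WT. It ranked 32 of 14076 genes per kilobase and held much of the signal of the whole group. The 54 members summed to 3737 and 5197 CPM in STING ECKO, against 3673 and 4359 CPM in WT. Without Gm26917 the sums were 1899 and 2450 CPM in STING ECKO, against 1808 and 1784 CPM in WT. This gene is uncertain as a lincRNA, since it lies 11 bases from CT010467.1, which the tables class as ribosomal RNA, and 12 bases from the RefSeq pseudogene Rn18s-rs5 of 18S ribosomal RNA. CT010467.1 itself was at 2369 and 1116 CPM in STING ECKO, against 1306 and 2002 CPM in WT. Its order over the libraries was not that of Gm26917, which was lowest where CT010467.1 was highest. Reads from other copies of the ribosomal repeat could be placed at either gene.

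Several described members act through short sequence elements. Cyrano, listed as 1700020I14Rik (ENSMUSG00000085438, chr2:119594297-119607502, plus strand), carries a long complementary site for the microRNA miR-7 and is known to direct the decay of that microRNA. The site, read from the GENCODE M21 transcript on GRCm38 (chr2:119602137-119602161, plus strand), and the mature microRNA, from RefSeq (GRCm38.p6), are shown because their pairing defines this RNA. Capitals mark the microRNA seed, bases 2 to 8, and the bases of the site opposite it.
Cyrano site for miR-7a-5p: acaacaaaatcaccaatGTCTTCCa
mmu-miR-7a-5p: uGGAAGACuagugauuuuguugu
Of the 23 bases of the microRNA, 21 pair with the site in runs of 8 and 13. The 8-base match GTCTTCCA occurs at 2 places in the Cyrano transcript, and 17.7% of the 158 M21 lincRNAs of at least 4000 bases hold at least 1. Cyrano had 4098 and 4083 reads in STING ECKO, against 4615 and 3682 reads in WT, or 223 and 187 CPM in STING ECKO, against 213 and 178 CPM in WT. The highest library was only 1.26 times the lowest and the genotypes overlapped. Its SD over the 4 libraries, 0.16 on the log2 CPM scale, was the smallest of all 54 members.

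Norad, listed as 2900097C17Rik (ENSMUSG00000102869, chr2:156388065-156392979, minus strand), is an abundant cytoplasmic RNA that binds Pumilio proteins and is needed for stable chromosome numbers. Pumilio proteins bind the element TGTANATA, in which N is any base. The closest pair of elements in the M21 transcript (chr2:156390515-156390544, minus strand, GRCm38) is shown with the elements in capitals.
Norad element pair: ctatgcTGTATATAtTGTACATActggaca
The transcript holds 11 such elements on its own strand. None of the other M21 lincRNAs of at least 4000 bases has as many, although 42.4% of the 158 hold at least 1, and no other member of the 54 has more than 4. Norad had 3338 and 6994 reads in STING ECKO, against 3968 and 5289 reads in WT, which is 182 and 320 CPM in STING ECKO, against 183 and 255 CPM in WT. Both genotypes held 1 lower and 1 higher library, and the log2 fold change, STING ECKO over WT, was 0.19 (SE 0.35).

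Malat1 (chr19:5795690-5802672, minus strand), an RNA of nuclear speckles, had 3761 and 7792 reads in STING ECKO, against 5434 and 4225 reads in WT. Its levels were 205 and 356 CPM in STING ECKO, against 251 and 204 CPM in WT, so only STING ECKO 2 stood above the rest. Its neighbour Neat1 (chr19:5824708-5845478, minus strand), the architectural RNA of paraspeckles, behaved otherwise. Neat1 had 311 and 37 reads in STING ECKO, against 65 and 1384 reads in WT, or 16.95 and 1.69 CPM in STING ECKO, against 3.01 and 66.7 CPM in WT. It was the most variable member, with an SD of 2.42 log2 units and a highest library 39.5 times the lowest, and each genotype held 1 high and 1 low library. Markers of microglia and macrophages moved in part with it: 7 such markers summed to 483 and 341 CPM in STING ECKO, against 527 and 1273 CPM in WT, with none of the 7 at 0 in any library. Their part in the Neat1 values was not tested.

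Miat (Gomafu, chr5:112213228-112229395, minus strand), a nuclear RNA best known from neurons and retina, carries repeats of TACTAAC, a copy of the intron branch point sequence that binds splicing factor SF1. The closest run of repeats in the M21 transcript (chr5:112216757-112216807, minus strand, GRCm38) is shown with the repeats in capitals.
Miat repeats: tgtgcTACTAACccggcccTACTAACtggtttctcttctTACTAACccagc
Miat holds 6 copies on its own strand, and no other M21 lincRNA of at least 4000 bases has as many; 14.6% of the 158 hold at least 1. Miat had 303 and 1038 reads in STING ECKO, against 93 and 59 reads in WT. Its levels were 16.5 and 47.5 CPM in STING ECKO, against 4.30 and 2.85 CPM in WT. Both STING ECKO libraries lay above both WT libraries, and STING ECKO 2 lay well above STING ECKO 1. The mean was 32.0 ± 21.9 CPM in STING ECKO and 3.57 ± 1.03 CPM in WT (SD, n = 2 each). The log2 fold change of 3.16 (SE 0.96) did not pass adjustment (edgeR quasi-likelihood test, Benjamini-Hochberg adjusted p = 0.977), nor did it in DESeq2 (adjusted p = 0.090). Without STING ECKO 2 it was 2.21. Between genotypes, neuron markers lay in the other order, with 8 of them summing to 63.8 and 42.2 CPM in STING ECKO, against 136 and 87.6 CPM in WT. Within WT, both Miat and this sum were higher in WT 3. Within STING ECKO, Miat was higher in STING ECKO 2 and the sum in STING ECKO 1. Syn1 was at 0 in both STING ECKO libraries, Snap25 in STING ECKO 1 and Gap43 in STING ECKO 2. The part of neurons in the Miat values was not tested. Exons of Miat share 2979 bases with Gm26953 on the opposite strand and 4 small annotated RNA features, so some of its reads may not be its own.

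Hosts of small RNAs form a second functional group. Members Gm3764 and Mir9-3hg contain the hairpins Mir9-1 and Mir9-3 in introns (0 of 11 and 0 of 7 M21 transcripts have the hairpin in an exon). Both hairpins give the same mature microRNA, miR-9, a regulator of neural progenitors, whose RefSeq sequence (GRCm38.p6) is shown once with its seed, bases 2 to 8, in capitals because 2 members lead to it.
mmu-miR-9-5p: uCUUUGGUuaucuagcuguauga
Gm3764 had 52.8 and 13.99 CPM in STING ECKO, against 66.3 and 15.9 CPM in WT. Mir9-3hg was weaker, with 4.14 and 1.01 CPM in STING ECKO, against 6.38 and 2.80 CPM in WT. Both were highest in WT 3, second in STING ECKO 1 and lowest in STING ECKO 2, and the genotypes overlapped for both. Markers of astrocytes and radial glia, cells that use miR-9, had the same order, with the 6 of 7 markers present in both tables summing to 131 and 80.0 CPM in STING ECKO, against 196 and 119 CPM in WT. Acsbg1 was at 0 in both STING ECKO libraries, and Aldh1l1 and Aqp4 were at 0 in STING ECKO 2. Their part in the host gene values was not tested, and in bulk RNA fewer cells of a type and less RNA per cell cannot be told apart.

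Snhg6 and Snhg20 are named as host genes of small nucleolar RNAs. Snhg6 was at 3.22 and 7.91 CPM in STING ECKO, against 4.30 and 6.75 CPM in WT, with overlapping genotypes. Snhg20 was at 5.29 and 5.67 CPM in STING ECKO, against 10.7 and 8.25 CPM in WT, so both STING ECKO libraries lay below both WT libraries, at a log2 fold change of -0.79 (SE 1.10) that was smaller than its error. In M21, 5 members held an annotated small RNA within their body, the fifth being Dubr, which holds Mir6363 and was at 18.2 and 5.40 CPM in STING ECKO, against 3.37 and 13.3 CPM in WT. Of these 5, 0 passed adjustment in edgeR, as did 0 (0%) of all genes tested.

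Another set of members starts close to a coding gene. Starts of 7 members were within 1000 bases of the start of a protein-coding gene on the opposite strand, reading away from it. The partners were Foxf2 at 24 bases from 1700018A04Rik, Grasp at 67 from A330009N23Rik, S1pr1 at 78 from Gm9889, Cdc5l at 115 from B230354K17Rik, Kmt2e at 172 from 5031425E22Rik, Tbl1xr1 at 510 from Gm43672 and Pou3f3 at 926 from Pantr1. Foxf2 is a transcription factor of brain vessels and pericytes, S1pr1 is the sphingosine-1-phosphate receptor of endothelium, and Pou3f3 is a neural transcription factor. In 3 further pairs the genes overlapped at their starts on opposite strands, namely Lppos with Lpp at 81 bases, B230217O12Rik with Fam160b1 at 95 and 1700086O06Rik with Dele1 at 310.

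By the deposited starts, the closest of these pairs is that of Foxf2. In RefSeq the nearest start of 1700018A04Rik lies 43279 bases from its deposited start. That distance is 656 bases for A330009N23Rik and 933 for 5031425E22Rik. The 300 bases of the RefSeq promoter window of Foxf2 (chr13:31625566-31625865, plus strand, GRCm38.p6), 250 before and 50 after its start, are shown. Capitals run from the deposited start of 1700018A04Rik to the RefSeq start of Foxf2.
Foxf2 promoter: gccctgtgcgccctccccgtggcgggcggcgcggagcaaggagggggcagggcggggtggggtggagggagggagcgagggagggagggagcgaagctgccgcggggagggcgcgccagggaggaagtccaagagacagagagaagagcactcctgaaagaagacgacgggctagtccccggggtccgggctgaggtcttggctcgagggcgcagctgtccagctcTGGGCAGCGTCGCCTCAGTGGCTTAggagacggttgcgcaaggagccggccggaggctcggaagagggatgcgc
The window holds 27 CpG dinucleotides against a median of 7 in 32851 windows, and its letters include GGGCGG, present on either strand in 35.7% of windows. The second window, of Cdc5l (chr17:45433658-45433957, minus strand, GRCm38.p6), is shown for comparison because its pair varied widely. Its capitals run over 146 bases from the deposited start of B230354K17Rik to the RefSeq start of Cdc5l. That RefSeq start is not the M21 start of Cdc5l that gives the 115 bases above.
Cdc5l promoter: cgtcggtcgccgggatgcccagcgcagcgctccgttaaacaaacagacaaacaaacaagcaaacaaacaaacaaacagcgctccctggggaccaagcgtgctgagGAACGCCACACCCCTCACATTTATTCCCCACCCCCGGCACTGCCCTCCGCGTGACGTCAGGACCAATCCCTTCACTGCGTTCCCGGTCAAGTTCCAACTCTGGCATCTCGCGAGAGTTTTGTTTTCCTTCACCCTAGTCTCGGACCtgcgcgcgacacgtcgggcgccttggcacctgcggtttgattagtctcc
It holds 26 CpG dinucleotides and no GGGCGG. The 15 members whose start lay within 100 bases of a RefSeq window start, of 29 members matched to a window, had a median of 19 CpG dinucleotides.

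Transcript 1700018A04Rik had 1976 and 1618 reads in STING ECKO, against 1711 and 2051 reads in WT. Its levels of 108 and 74.0 CPM in STING ECKO, against 79.1 and 98.9 CPM in WT, overlapped between genotypes. Foxf2 was at 219 and 318 CPM in STING ECKO, against 294 and 297 CPM in WT, so the lincRNA was highest in the library where its partner was lowest. Both were steady, at SDs of 0.26 and 0.24 log2 units. The pair of B230354K17Rik and Cdc5l, a splicing factor, was not steady. B230354K17Rik was at 15.6 and 16.8 CPM in STING ECKO, against 22.9 and 4.05 CPM in WT, while Cdc5l was at 163 and 47.0 CPM in STING ECKO, against 124 and 78.6 CPM in WT.

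Gm9889 was at 7.03 and 7.27 CPM in STING ECKO, against 6.24 and 1.88 CPM in WT, low only in WT 5, whereas S1pr1 was at 287 and 317 CPM in STING ECKO, against 250 and 277 CPM in WT. Pantr1 was at 15.0 and 20.1 CPM in STING ECKO, against 15.0 and 10.8 CPM in WT, and Pou3f3 was at 13.6 and 13.0 CPM in STING ECKO, against 8.18 and 8.83 CPM in WT. For both genes of that pair STING ECKO lay above WT, although Pantr1 was all but tied between STING ECKO 1 and WT 3. Gm43672 lay the other way, at 10.3 and 8.37 CPM in STING ECKO, against 36.2 and 23.7 CPM in WT, while its partner Tbl1xr1, a subunit of corepressor complexes, had overlapping genotypes at 45.4 and 35.7 CPM in STING ECKO, against 59.8 and 19.4 CPM in WT. The log2 fold change of Gm43672 was -1.68 (SE 0.74), against 0.03 (SE 0.67) for Tbl1xr1. Over the 7 pairs, the lincRNA had a lower level per kilobase of exon than its partner in 4 and was more variable in 5. The 3 with the higher level were Gm43672 at 11.3 CPM per kb against 4.50 for Tbl1xr1, A330009N23Rik at 13.7 against 2.19 for Grasp, and Pantr1 at 3.42 against 1.47 for Pou3f3. Over all 44 members whose nearest coding gene was in both tables, 34 were more variable than that gene, and 23 had a log2 fold change of the same sign as it. The genes of a pair were not matched in level in these counts, and spread was wider at low levels in both classes.

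**Figure D2:**
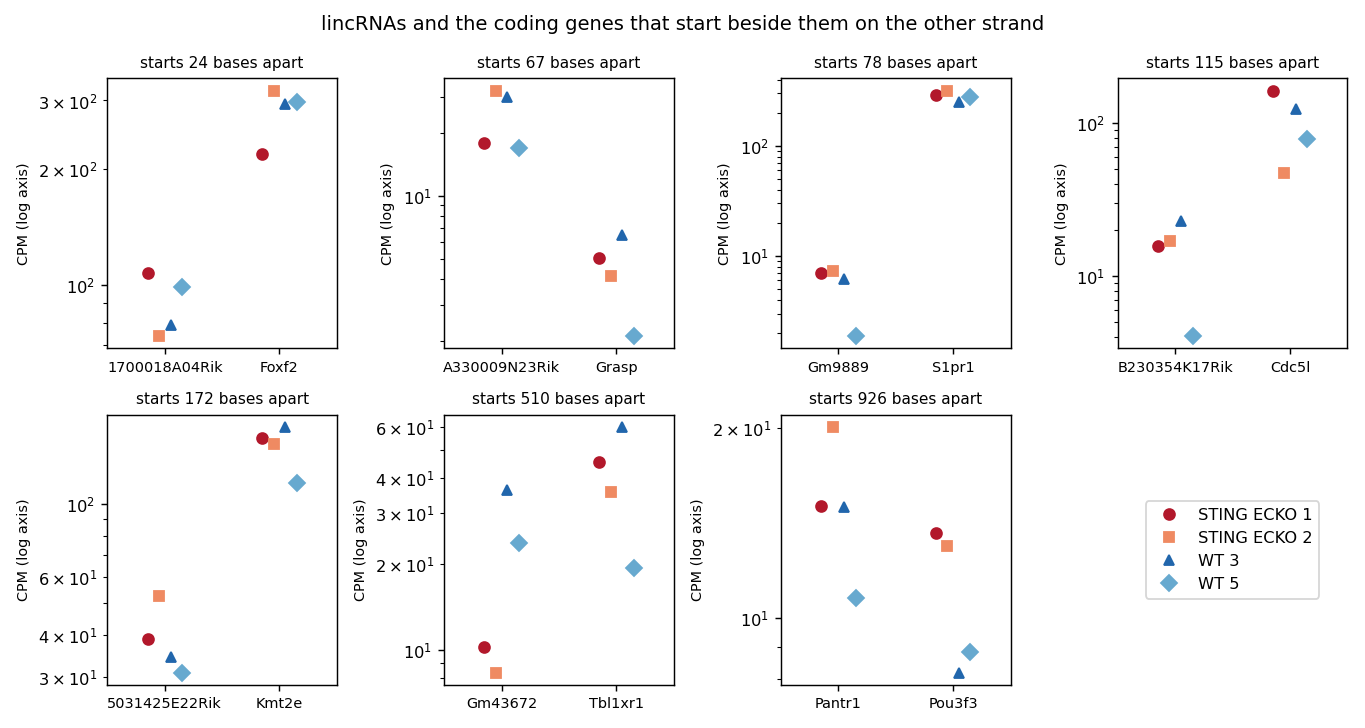
Levels in CPM (log axis) of lincRNAs and the protein-coding genes whose starts lie beside theirs, by library, with 1 panel per pair, 1 symbol per library and STING ECKO 1 and 2 to the left of WT 3 and 5 for each gene. Foxf2 and 1700018A04Rik span little over their 4 libraries, while B230354K17Rik drops to 4.05 CPM in WT 5 and Gm9889 to 1.88 CPM in WT 5.

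Other members near vascular genes were Gm19590, AC161054.2 and Gm17745. Gm19590, whose nearest coding gene is the VEGF receptor gene Kdr, 142813 bases away, was at 24.6 and 28.3 CPM in STING ECKO, against 13.0 and 9.16 CPM in WT. The genotypes did not overlap for Gm19590, at a log2 fold change of 1.25 (SE 0.74), while Kdr was at 0.24 (SE 0.17). AC161054.2 starts 6268 bases from Elk3, an ETS factor of endothelium, and was at 10.4 and 25.4 CPM in STING ECKO, against 13.5 and 11.7 CPM in WT, high only in STING ECKO 2. Gm17745, 24258 bases from Elk3, was likewise high in STING ECKO 2 alone, with 5.94 and 28.6 CPM in STING ECKO, against 6.84 and 3.62 CPM in WT. Elk3 did not show this, with 196 and 167 CPM in STING ECKO, against 264 and 205 CPM in WT.

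Bvht and Carmn lie side by side on chromosome 18 and are read in opposite directions. Bvht is known from cardiac commitment in the mouse, and Carmn from smooth muscle. Bvht was at 25.7 and 58.7 CPM in STING ECKO, against 28.6 and 19.4 CPM in WT. Carmn was at 29.3 and 13.4 CPM in STING ECKO, against 20.5 and 11.2 CPM in WT. Their orders differed, as Bvht was highest and Carmn near its lowest in STING ECKO 2. Pericyte and smooth muscle markers, 6 of 8 in both tables, summed to 9037 and 9319 CPM in STING ECKO, against 7309 and 6733 CPM in WT. Of these 6, 2 were higher and 2 were lower in both STING ECKO libraries than in both WT libraries. Acta2, the defining smooth muscle actin, was at 0 in both STING ECKO libraries and above 0 in both WT libraries. Myh11 and Tagln, the other smooth muscle markers listed, were not in both tables. The part of these cells in the Bvht and Carmn values was not tested.

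The remaining strong members were 9530082P21Rik, C330006A16Rik, Gdap10 and 1810058I24Rik. 9530082P21Rik (chr17:23743234-23754065, plus strand) was at 278 and 399 CPM in STING ECKO, against 239 and 217 CPM in WT. Its genotypes did not overlap, at a log2 fold change of 0.57 (SE 0.25), but its exons share 1271 bases with Kremen2 and Flywch1 on the opposite strand. C330006A16Rik, named Tmem250-ps in M21, was at 177 and 154 CPM in STING ECKO, against 136 and 135 CPM in WT, a small separation with a log2 fold change of 0.29 (SE 0.24). Its exons share 368 bases with the lincRNA 1810012K08Rik on the opposite strand. Gdap10 starts 2327 bases from Nampt, the enzyme of NAD salvage, and its body overlaps that gene on the same strand. Their exons share no bases in M21, but reads of Nampt RNA may be among those of Gdap10, which was not tested. Gdap10 was at 102 and 147 CPM in STING ECKO, against 48.8 and 96.8 CPM in WT. Nampt was at 241 and 260 CPM in STING ECKO, against 199 and 297 CPM in WT, with overlapping genotypes. Unlike those 3, 1810058I24Rik was high in STING ECKO 2 alone, at 56.3 and 129 CPM in STING ECKO, against 61.7 and 74.6 CPM in WT.

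Spread over the 4 libraries was wider for the lincRNAs than for protein-coding genes that passed the same floor. The median SD was 0.86 log2 units for the 54 members and 0.50 for the 8789 protein-coding genes, and the median ratio of highest to lowest library was 3.42 against 2.18. In both classes the spread was wider below 20 CPM than above it. Below 5 CPM the median SD was 1.04 for the 6 members and 0.75 for protein-coding genes, at 5 to 20 CPM 1.01 for 32 members and 0.80, at 20 to 100 CPM 0.67 for 10 members and 0.53, and at 100 CPM or more 0.34 for 6 members and 0.29. The members were higher in each of the 4 ranges. Pooled over all levels, the median SD was 0.72 for 36 antisense genes and 0.71 for 46 processed transcripts. At 5 to 20 CPM antisense genes were at 1.05, and at 20 to 100 CPM processed transcripts were at 0.86, both above the lincRNAs of the same range. Below 5 CPM antisense genes were at 0.62 and processed transcripts at 0.69, both below protein-coding genes. The counting error computed from the read numbers alone had a median of 0.12 log2 units and a highest value of 0.24 over the members. No test was made of these differences, because the floor that chose the genes also limits their spread.

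**Figure D3:**
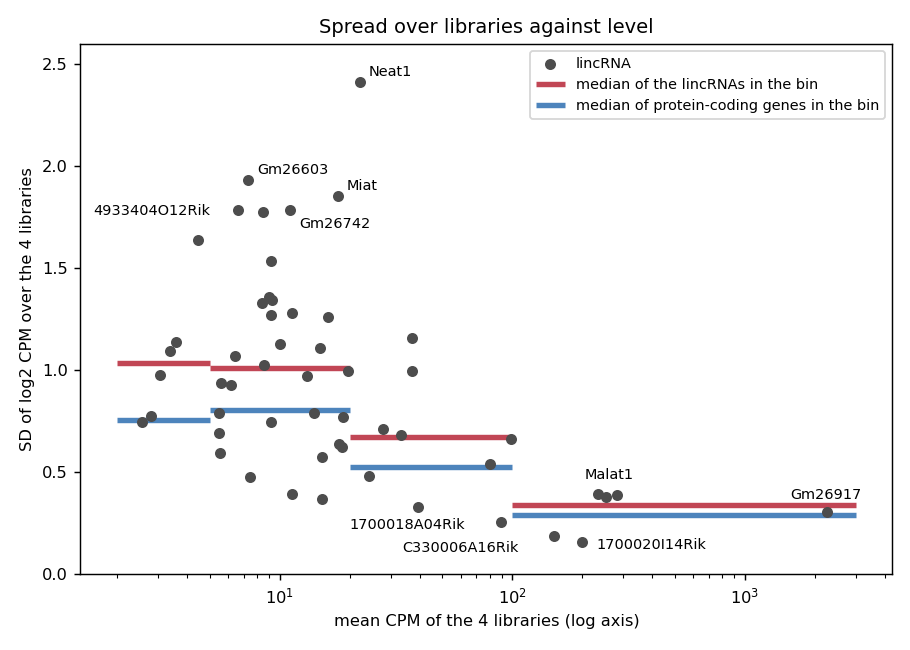
SD of log2 CPM over the 4 libraries (both genotypes together) against mean CPM (log axis) for each lincRNA, with bars at the median of the lincRNAs and of protein-coding genes in 4 ranges of level. The lincRNA bar lies above the protein-coding bar in each range, by 1.04 against 0.75 in the lowest and 0.34 against 0.29 in the highest.

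The steadiest members after Cyrano were C330006A16Rik at an SD of 0.19, 1700018A04Rik at 0.26, Gm26917 at 0.30 and 5031425E22Rik, the partner of Kmt2e, at 0.33 log2 units. All 5 had a highest library less than 2 times the lowest, as did 11 of the 54. At the other end, 24 members spanned at least 4-fold and 7 at least 10-fold. After Neat1 these were Gm26742, Gm26857 at 19.1-fold, Gm26603 at 18.8-fold, Miat at 16.7-fold, 4933404O12Rik at 13.7-fold and C920006O11Rik at 13.1-fold. Gm26603 was at 9.05 and 0.91 CPM in STING ECKO, against 17.2 and 2.07 CPM in WT, so each genotype held 1 high and 1 low library. 4933404O12Rik was at 1.53 and 20.9 CPM in STING ECKO, against 2.50 and 1.59 CPM in WT, and C920006O11Rik at 1.74 and 13.3 CPM in STING ECKO, against 1.76 and 1.01 CPM in WT. STING ECKO 2 alone was high for both. Gm11378, a short transcript inside the body of 1700018A04Rik on the other strand, was at 15.2 and 1.78 CPM in STING ECKO, against 9.29 and 9.74 CPM in WT, low in STING ECKO 2 alone.

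Libraries of the same genotype were as far apart as libraries of different genotypes. For each member the absolute log2 differences between libraries were averaged, within genotypes and across them. The median of these averages over the members was 1.01 within genotypes and 1.02 across them. Taken singly, the median absolute difference was 0.95 between the STING ECKO libraries and 0.85 between the WT libraries. In 9 of the 54 members (16.7%) the difference between genotype means exceeded both differences within a genotype, against 20.1% of protein-coding genes. STING ECKO 2 was the highest library for 23 members and the lowest for 12, and STING ECKO 1 was the highest for 13 and the lowest for 10. WT 3 was the highest for 12 and the lowest for 8, and WT 5 was the highest for 6 and the lowest for 24. Among these members STING ECKO 2 was thus most often the highest and WT 5 most often the lowest. The read floor bears on these counts, because 28 autosomal lincRNAs were left out for STING ECKO 2 alone, against 9 to 11 for any other single library. Its part was not tested, and no such counts are given for protein-coding genes. The median member stood at 12.9 and 13.7 CPM in STING ECKO, against 12.8 and 10.97 CPM in WT.

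**Figure D4:**
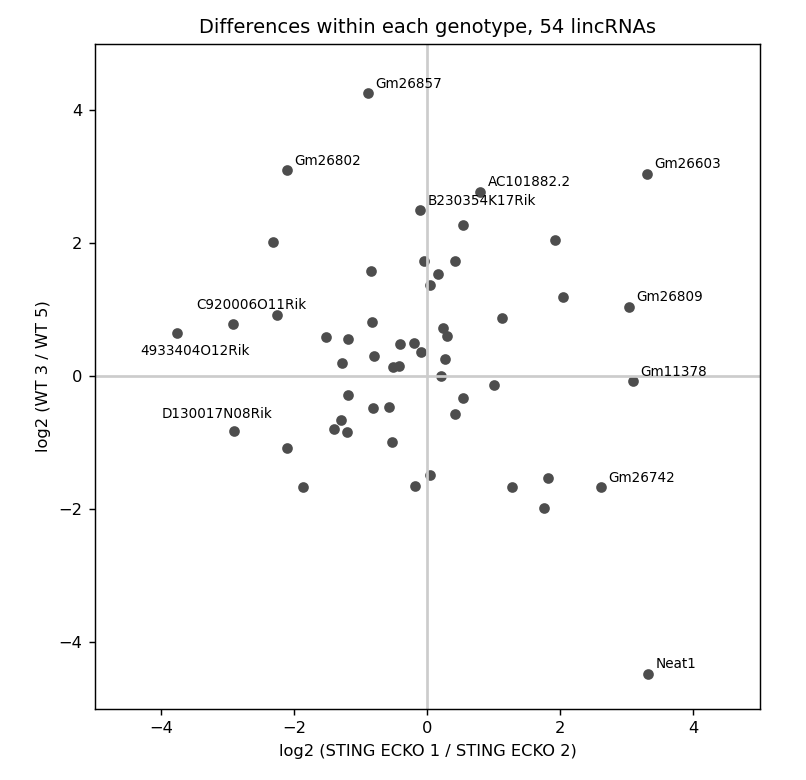
Log2 ratio of STING ECKO 1 to STING ECKO 2 (horizontal) against log2 ratio of WT 3 to WT 5 (vertical) for the 54 lincRNAs, 1 point each, with lines at 0. Neat1 lies at the lower right, high in STING ECKO 1 and WT 5, Gm26603 at the upper right, high in STING ECKO 1 and WT 3, and points lie on every side of both lines.

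No lincRNA passed the test between genotypes. In the edgeR quasi-likelihood fit over 13365 genes, 0 genes (0%) and 0 of the 54 members had a Benjamini-Hochberg adjusted p under 0.05, and the smallest adjusted p of a member was 0.977, for Miat. At an unadjusted p under 0.05 there were 642 genes (4.8%), of which 271 (2.03%) were higher and 371 (2.78%) were lower in STING ECKO, and 1 member, Miat. DESeq2 called 87 genes (0.651%) and limma-voom 0 genes (0%), with 0 members in either. Of the members, 36 had a log2 fold change above 0 and 18 below 0, with a median of 0.26, while over all genes tested the median was -0.03 and 48.2% were above 0. Without STING ECKO 2 the members divided into 28 above and 26 below 0, so much of the excess rested on the values of that library. Every member had been required to pass the read floor in that same library, and all genes tested had not. LincRNAs low in STING ECKO 2 were thereby left out, and the part of the floor in the excess was not tested. The median of the members was 0.15 without STING ECKO 2 and 0.57 without WT 3.

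Both STING ECKO libraries lay above both WT libraries for 12 members (22.2%), against 15.4% of all genes tested, and below both for 4 members (7.41%), against 19% of all genes tested. These shares are not on equal terms, because all genes tested carried no floor of 20 reads in every library. Among lincRNAs that floor left out those low in STING ECKO 2 most often, and its part in the shares was not tested. The 5 of the 12 with the smallest p were Miat, 9530082P21Rik, Gdap10, Gm19590 and Gm37494. Gm37494 was at 50.6 and 25.2 CPM in STING ECKO, against 17.1 and 18.6 CPM in WT, with a log2 fold change of 1.09 (SE 0.65) that was 0.50 without STING ECKO 1. The 4 members below were Gm43672, Snhg20, Gm26742 and D130051D11Rik. Gm26742 was at 8.07 and 1.33 CPM in STING ECKO, against 8.37 and 26.5 CPM in WT, where STING ECKO 1 and WT 3 were nearly equal. Its log2 fold change of -1.89 (SE 1.34) lay between -3.71 without STING ECKO 1 and -0.83 without WT 5. On the opposite strand, exons of Gm26742 share 79 bases with Zfp608, and those of Gm37494 share 103 bases with Gm44573. D130051D11Rik was at 1.64 and 1.46 CPM in STING ECKO, against 7.72 and 2.65 CPM in WT, at a log2 fold change of -1.74 (SE 1.45) that was -0.77 without WT 3. With 2 libraries per genotype the errors were wide, and a p that misses the threshold does not show that these RNAs were alike in both genotypes.

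**Figure D5:**
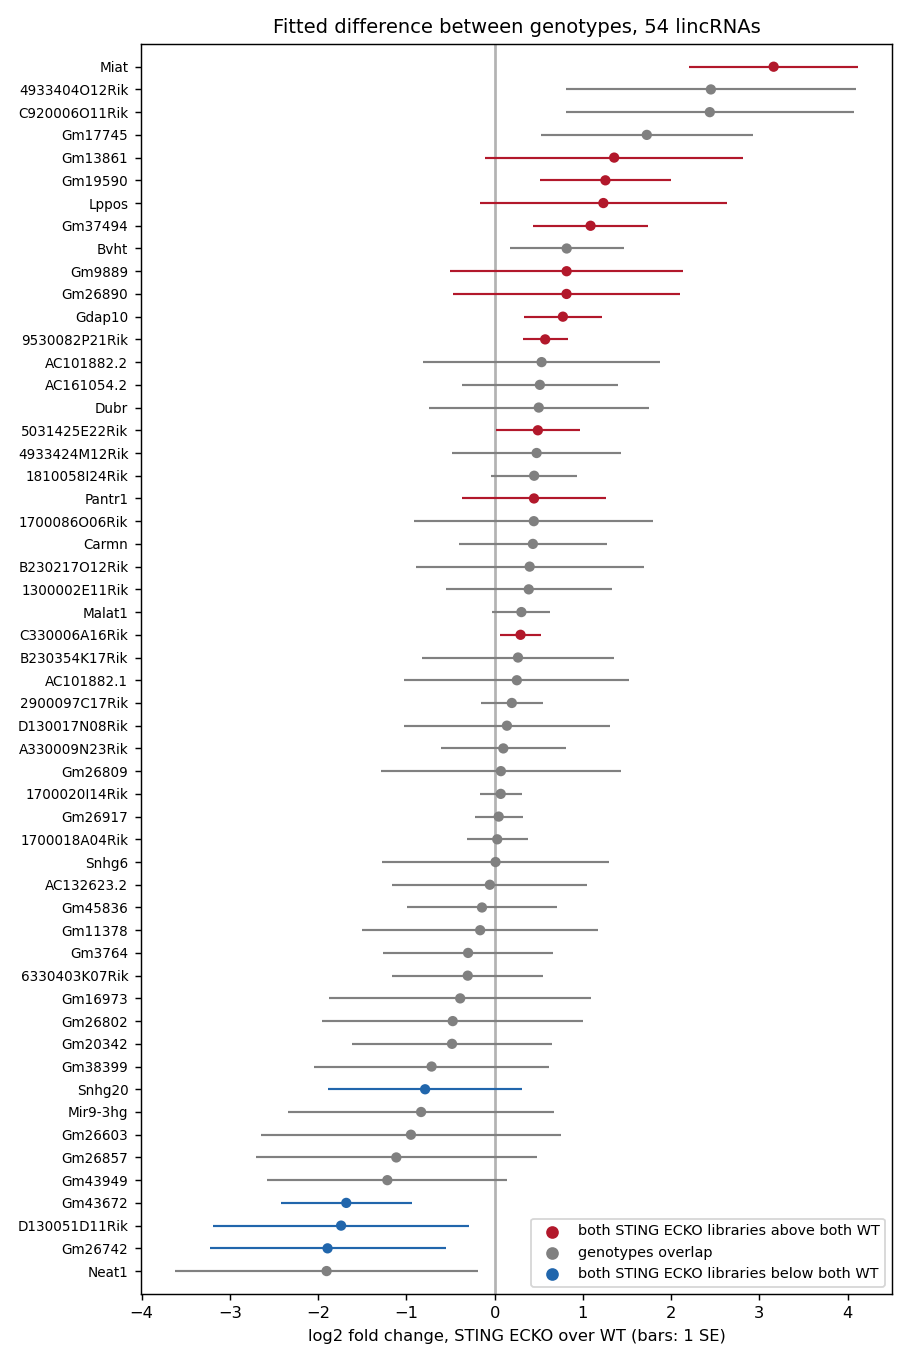
Log2 fold change, STING ECKO over WT, of each of the 54 lincRNAs from the edgeR fit (points) with 1 SE on either side (bars), ordered by size and coloured by whether the libraries of both genotypes overlap. The SE is derived from the F statistic of the test. Miat lies highest at 3.16 and Neat1 lowest at -1.90, and most bars cross 0.

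The 26 members not named by the rule were weaker on the whole, with means of 2.55 to 37.2 CPM, SDs of 0.40 to 1.78 log2 units and log2 fold changes from -1.22 to 1.72, of which 16 were above and 10 below 0.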

How the data were processed

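RNA of brain endothelial cells from 2 STING ECKO and 2 WT libraries was sequenced. Counts of reads for each gene were deposited by the authors as whole numbers, in 2 tables that each set 1 STING ECKO library beside 1 WT library. The tools TopHat2 2.0.12, HTSeq 0.6.0 and Bowtie2 2.2.3 and the build mm9 are named per the submitters' processing notes. Positions in the tables were those of GRCm38; a strand setting is not given in the sources used here. Library totals were 18610298 and 22169261 reads in STING ECKO 1 and 2, against 21472677 and 20591981 in WT 3 and 5. Genes in both tables were fitted together with edgeR 4.0.16 in R 4.3.3 (genes kept by filterByExpr at 10 counts or more, TMM factors, quasi-likelihood test, Benjamini-Hochberg adjustment over 13365 genes, threshold 0.05). Each SE is the absolute log2 fold change divided by the square root of the F statistic of that test, so it is derived from the test and not estimated directly. DESeq2 1.42.0, limma-voom 3.58.1, other scalings and floors, the deposited table as a block, and leaving out each library were alternatives.

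Exon lengths, neighbours and transcripts came from GENCODE M21, and promoters and microRNAs from RefSeq. Members were named by level per kilobase (10), smallest p without overlap (5 per direction), smallest and largest SD (5 each), 2 lists of described lincRNAs and small RNA hosts, and closeness to the floor of 20 reads (3 on each side). Genes of head-to-head pairs, Gm3764, Dubr, Gm17745, Gm26857 and members with another M21 class were named after their values were seen. Members and lists were chosen with earlier results of these data known.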

Additional observations from a re-analysis of the deposited data

How the results depend on the processing

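Neither another scaling, nor no filter on low counts, nor leaving out any library gave a lincRNA or any gene an adjusted p under 0.05 in edgeR, and limma-voom gave 0 of each; DESeq2 called 87 genes and 0 lincRNAs. The genotypes share no replicate number in the labels; a fit with the deposited table as a block, each table setting 1 STING ECKO beside 1 WT library, called 0 genes, with 273 genes (2.04%) and 0 members at an unadjusted p under 0.05. Floors of 10 and 50 reads left 64 and 37 lincRNAs with a median SD of 0.99 and 0.68 log2 units, against 0.86, and the M21 classes gave 53, of which 49 were shared. The 36 members without a shared exon, an alternative chosen after seeing the data, had a median SD of 0.95. With single libraries left out, the median SD lay between 0.78 and 0.89 and the median log2 fold change between 0.15 and 0.57 (0.57 without WT 3). In those fits the lone library of a genotype is assumed to vary like the other genotype.

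Of the 28 named members, 13 changed sign in some setting, none of them past the threshold in any. With single libraries left out, the log2 fold change ranged from -0.27 to 0.31 for Gm26917, -0.26 to 0.55 for 2900097C17Rik, -0.14 to 0.65 for Malat1, -0.27 to 0.93 for 1810058I24Rik, -0.26 to 1.02 for AC161054.2, -0.41 to 3.35 for 4933404O12Rik, -2.41 to 0.68 for Gm11378 and -0.77 to 0.52 for Snhg6, each with its sign turned without STING ECKO 2. It ranged from -0.065 to 0.21 for 1700020I14Rik, -0.26 to 0.28 for 1700018A04Rik and -0.23 to 0.94 for Carmn, turned without STING ECKO 1, from -3.39 to 1.26 for Gm26603, turned without WT 3, and from -4.36 to 1.64 for Neat1, turned without WT 5. Gm26917, 2900097C17Rik, 1700018A04Rik and Snhg6 also turned without WT 3, and 1700020I14Rik without WT 5. With the block it was -0.094 for Snhg6, and with limma-voom -0.026 for Snhg6 and -0.0026 for 1700018A04Rik. The cause was not tested. Without STING ECKO 1, 6 of the 54 members (11.1%) had an unadjusted p under 0.05, against 19.5% of all genes tested in that fit.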

Other observations

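The floor of 20 reads in every library left out 204 autosomal lincRNAs, of which 59 reached 20 reads in 3 libraries, 66 in 2, 54 in 1 and 25 in none. Some were as strong as the members in single libraries. Mir17hg, the host of the miR-17 to miR-92 cluster, had 0 and 0 reads in STING ECKO 1 and 2, against 780 and 7 reads in WT 3 and 5. AC118476.2 had 2 and 1348 reads in STING ECKO 1 and 2, against 198 and 248 reads in WT 3 and 5, and 4632415L05Rik had 586 and 0 reads in STING ECKO 1 and 2, against 270 and 686 reads in WT 3 and 5. No common order of the libraries was seen in these 3, which were chosen after their values were seen.

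Both STING ECKO libraries were at 0 and both WT libraries at 20 reads or more for 5 lincRNAs of the 260, against 113 (0.801%) of all 14100 genes. Gm5086 had 343 and 125 reads in WT 3 and 5, Gm37233 had 247 and 85, Gm26660 had 125 and 47, 6720483E21Rik had 63 and 111 and Gm22 had 44 and 50. The reverse held for 1 lincRNA, Gm11827, with 148 and 225 reads in STING ECKO 1 and 2, against 0 in both WT libraries, and for 34 (0.241%) of all genes. STING ECKO 2 had 97 of the 260 autosomal lincRNAs at 0, against 20 to 33 in the other libraries, and its part in these counts was not tested.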
